A study of Saccharomyces cerevisiae with 117 samples.

Results

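The 36 genes described here carry out autophagy in budding yeast. They were chosen by name from 6420 gene rows as the core machinery of autophagosome formation, the cargo receptors and the vacuolar proteins that finish the process, and all 36 IDs carry the expected gene symbol in the RefSeq annotation. They divide by role into the Atg1 kinase complex and its scaffolds (6 genes), the phosphatidylinositol 3-kinase complex (3), membrane supply to the growing autophagosome (7), the ubiquitin-like conjugation of Atg8 and Atg12 (8), sorting nexins (2), cargo receptors and organelle factors (7) and proteins of the vacuole (3).

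Autophagy encloses cytoplasm or organelles in a double membrane and delivers them to the vacuole, where they are degraded and their building blocks are returned to the cell. In growing yeast the kinase TORC1 restrains the Atg1 kinase, and a selective branch of the pathway carries vacuolar hydrolases such as aminopeptidase 1 instead. Starvation for nitrogen or amino acids lifts the restraint, and transcription of some ATG genes is released from repressors such as the Ume6 and Rpd3 complex and Rph1.

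RNA was sequenced from single spheroplasts (cells whose wall had been digested with Zymolyase) of strain S288C, all grown from 1 clone to log phase in rich YPD medium. Isotonic cells were then held in synthetic medium with 1 M sorbitol. AAS cells were held in the same medium and sorbitol without amino acids, GS cells in the same medium and sorbitol without glucose, and hypotonic cells in the medium without sorbitol, for 0.5 to 5 h according to the labels, with the time of each cell not given. Of 117 cells the 84 that the study kept were used: in batch 1 18 AAS, 16 isotonic and 12 hypotonic cells, and in batch 2 21 GS and 17 isotonic cells. The batches differ in depth and are never mixed below.

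In batch 1 each AAS cell had 3112955 to 8502504 reads on genes, each isotonic cell 3603505 to 55179414 and each hypotonic cell 4297691 to 7870247. Batch 2 was shallower, with 705807 to 2535593 in a GS cell and 14245 to 1133518 in an isotonic cell. Genes with at least 1 read had a median of 5117.5 in AAS cells, 4149.5 in isotonic cells and 3255 in hypotonic cells of batch 1, and of 1332 in GS cells and 1047 in isotonic cells of batch 2. ERCC spike-in RNA made up a median of 5.12% of the reads of AAS cells and 0% of those of batch 1 isotonic cells. The medians were 40.5% in GS cells and 77.2% in batch 2 isotonic cells. In batch 1 the kept isotonic cells held 0 to 117 ERCC reads and the AAS cells 8218 to 572379, so the libraries differed along with the treatment. The paper states that spike-in was added to most samples. Whether spiking or the amount of cell RNA set these shares was not tested. No separate cultures are named, so each group counts as 1 sample and no test was made: SDs are over cells, intervals are exact 95% intervals for counting error only, and reads that are PCR copies are not independent molecules.

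Levels are CPM (reads of a gene per 1000000 reads on genes in that cell). A log2 fold change is the log2 of the ratio of mean CPM plus 1 CPM, which understates the change of low genes, and a gene is called higher or lower from 2-fold when at least 20% of the compared cells held a read of it.

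The promoters of ATG8, ATG9 and ATG42 are shown because ATG8 was higher in the largest share of cell pairs and ATG9 by the largest fold in AAS cells, and ATG42 was read in the most GS cells of the set. Each run is the 200 bases from base 250 to base 51 before the start codon in RefSeq build R64, read 5′ to 3′ on the strand of the gene. Capitals mark exact matches, on either strand, to GATAAG (bound by the GATA factors Gln3 and Gat1), TGACTC (Gcn4; GAGTCA on the other strand), AGGGG (Msn2, Msn4 and Rph1) and GGCGGC (core of the Ume6 site).
ATG8, chrII:80782-80981, minus strand: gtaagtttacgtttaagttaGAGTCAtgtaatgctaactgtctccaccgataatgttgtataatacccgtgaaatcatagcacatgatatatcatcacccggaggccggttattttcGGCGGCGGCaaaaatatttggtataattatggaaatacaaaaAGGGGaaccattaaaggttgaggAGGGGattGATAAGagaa
ATG9, chrIV:184675-184874, plus strand: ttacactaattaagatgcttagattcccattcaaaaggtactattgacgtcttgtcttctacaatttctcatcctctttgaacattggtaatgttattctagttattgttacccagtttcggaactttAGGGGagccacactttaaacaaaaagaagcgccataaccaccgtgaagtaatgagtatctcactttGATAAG
ATG42, chrII:515414-515613, plus strand: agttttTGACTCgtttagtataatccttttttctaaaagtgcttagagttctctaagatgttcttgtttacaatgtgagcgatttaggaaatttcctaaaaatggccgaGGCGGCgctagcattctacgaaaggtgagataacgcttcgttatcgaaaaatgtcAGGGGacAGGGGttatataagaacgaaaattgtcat
The ATG8 promoter held all 4 motifs, and its GGCGGC matches overlap in a single run. Over the 250 bases before each start codon, GATAAG was found in 10 of the 36 genes and in 12.55% of 6001 promoters, TGACTC in 6 and 6.25%, AGGGG in 9 and 18.76%, and GGCGGC in 3 (ATG8, ATG19 and ATG42) and 4.17%. A match is only a description of the letters, and ATG1, ATG7, ATG36, ATG39 and ATG41 held none of the 4 in this window.

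Under amino acid starvation most of the 36 genes had higher levels, fewer once the shift of all genes was scaled out. Of the 36 genes 35 passed the detection filter, and all 35 also passed it in isotonic cells alone; 29 were at least 2-fold higher in AAS cells and 1 at least 2-fold lower, where 43.2% of 5825 genes were higher and 13.8% were lower. Their median log2 fold change was 1.90, against 0.74 for all genes. ATG10 (YLL042C), the E2-like enzyme for Atg12, was the gene that failed the filter, with 22 reads in all AAS cells and 1 read in all isotonic cells.

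Because the all-gene median lay above 0, the comparison was also made on reads summed over each group and scaled to the bulk of genes. Summing weights cells by depth: isotonic cells A7 and A35 held 55179414 and 33192899 of the 208742542 summed isotonic reads. With edgeR's TMM 20 of the genes were higher and 2 lower, where 27.9% of all genes were higher and 25.7% lower, and their median log2 fold change was 1.12 beside 0.09 for all genes. With DESeq2 size factors 19 were higher and 3 lower, where 1531 of the 5825 genes were higher and 1572 lower, and the medians were 1.03 and 0.01. ATG5, ATG14, ATG17, ATG19, ATG21, ATG22, ATG32, ATG40 and ATG42 dropped below 2-fold under both scalings, and ATG31 turned from 0.56 to below 0 under both, to -0.76 with DESeq2 size factors.

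The summed level of the 36 genes ran from 1638 to 5432 CPM in AAS cells, with a median of 4706, and from 347 to 2402 CPM in isotonic cells, with a median of 1282. Thus 16 of 18 AAS cells lay above the highest isotonic cell, and the exceptions were cell D97X, at 1638 CPM and with the fewest genes read (2820), and cell D94X, at 2222 CPM. Without both cells 28 genes were at least 2-fold higher. The hypotonic cells had a median of 1556 CPM. These sums were not scaled to the bulk of genes, so they hold the shift of all genes, and they cover kept cells only. Isotonic cell G36, which the study left out, stood at 3992 CPM. It lay above AAS cells D24 (3915 CPM), D93X (3641 CPM) and D30 (3637 CPM) as well as D94X and D97X. AAS cells D95X and D96X, also left out by the study, stood at 1940 and 1301 CPM, inside the range of the kept isotonic cells. Like D94X and D97X, they have X in their name.

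**Figure D1:**
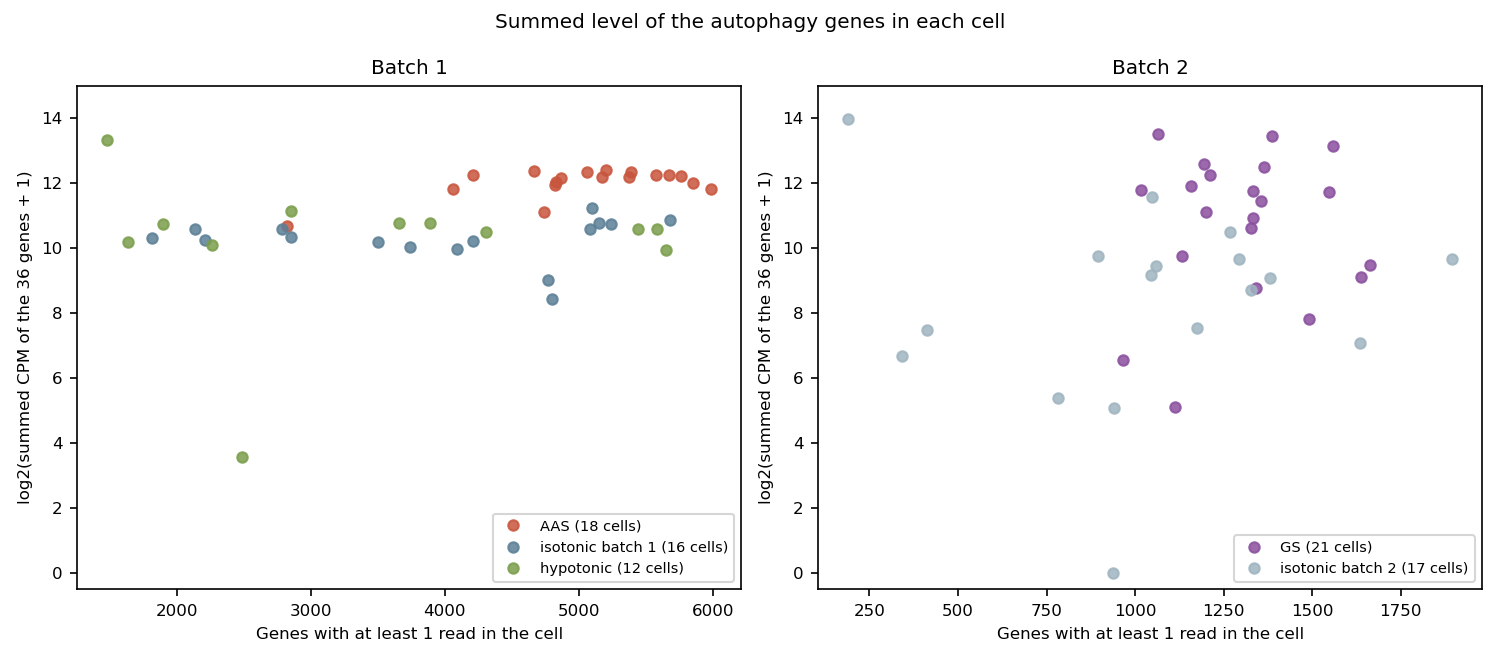
Summed level of the 36 autophagy genes, as log2(CPM + 1), against the number of genes read in each kept cell of batch 1 (left) and batch 2 (right); 1 point is 1 cell and the colours are the groups. In batch 1, 16 of 18 AAS cells lie above all 16 kept isotonic cells, also where the number of genes read is alike. The levels are not scaled to the bulk of genes. In batch 2 the isotonic cell with the fewest genes read (191) is the highest of all.

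AAS cells also tended to hold reads of more of the genes, with overlap. When every cell was thinned to 100000 reads, AAS cells had reads of a median of 29 of the 36 genes (11 to 36), isotonic cells of 9.5 (2 to 26) and hypotonic cells of 11.5 (0 to 28). All 36 genes were then read in a larger share of AAS than of isotonic cells, where 82.0% of all gene entries were. Without thinning it was 35 of 36, where 76.0% of all entries were, so the wider detection was shared with most of the transcriptome.

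**Figure D2:**
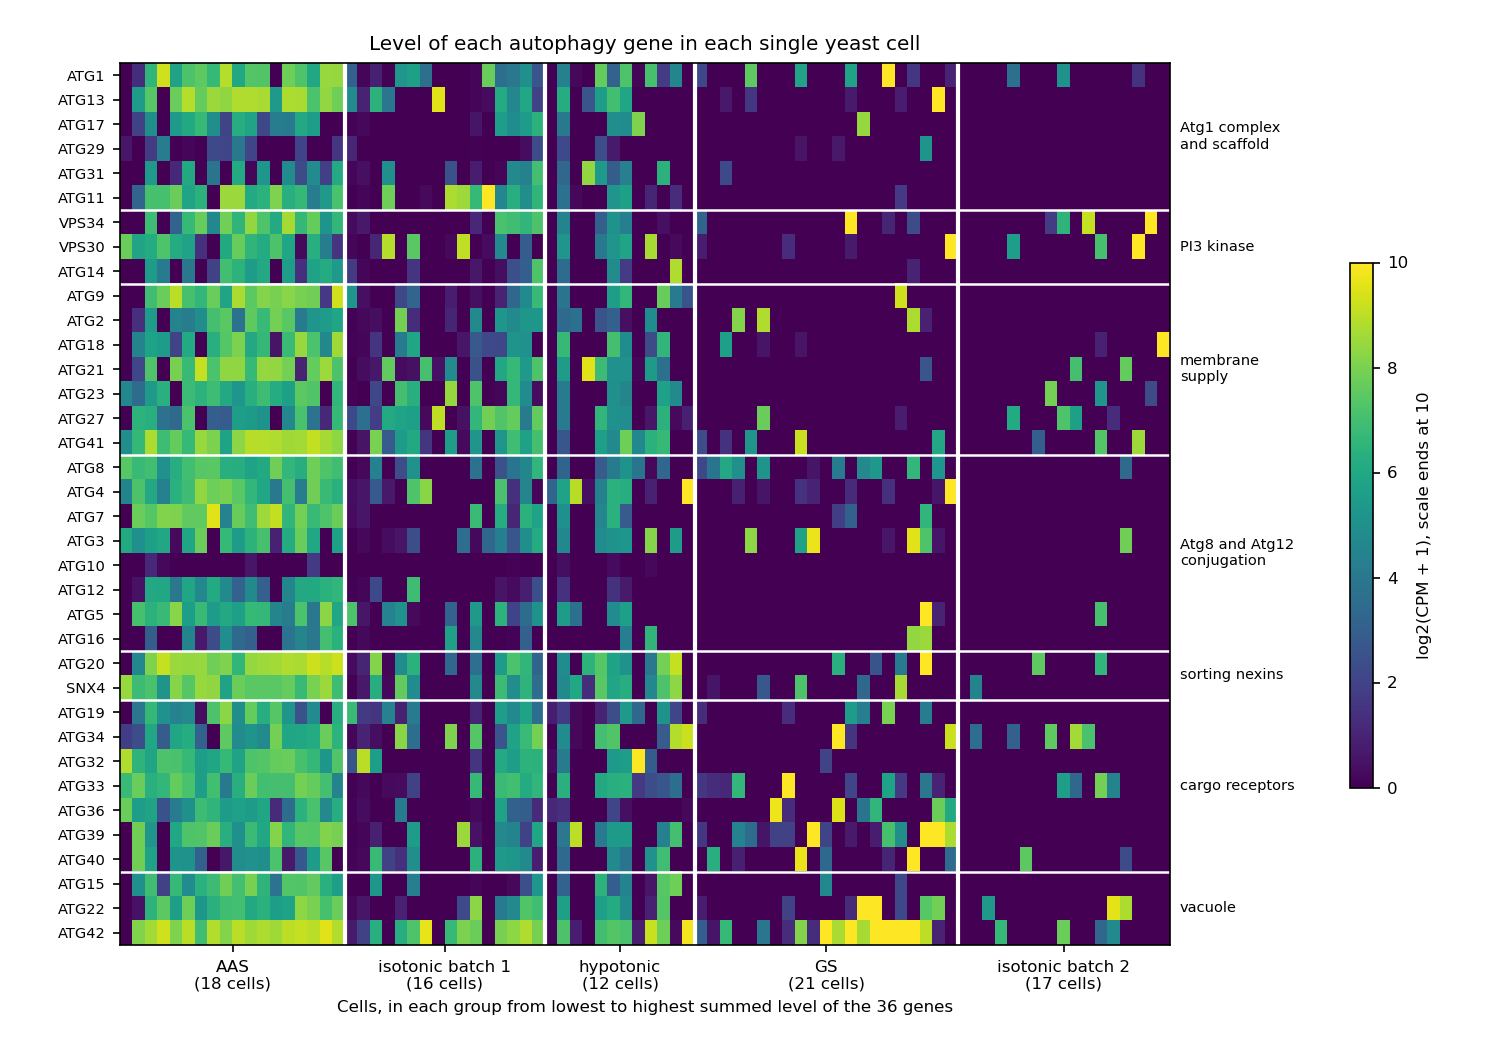
Level of each autophagy gene (rows, by role) in each kept cell (columns, by group and sorted by summed level), as log2(CPM + 1) on a scale that ends at 10. Most rows are filled across the 18 AAS cells and patchy in the isotonic and hypotonic cells; in batch 2 most genes are read in few cells, apart from ATG42, ATG39 and ATG8 in GS cells.

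Summed by role, the median levels were higher in AAS cells in each of the 7 roles. The conjugation genes together had a median of 668 CPM per AAS cell (254 to 1262) and of 48.4 CPM per isotonic cell (0 to 322), and the sorting nexins 547 CPM (138 to 859) against 14.2 CPM (0 to 353). In these the groups overlapped little. Medians in AAS cells were also higher for the kinase complex (713.7 against 160 CPM) and membrane supply (1053 against 267 CPM). So were those of the receptors (648 against 292 CPM) and the vacuolar genes (677 against 143 CPM). The phosphatidylinositol 3-kinase genes had medians of 207.8 against 2.26 CPM, but their means of 229 and 117 CPM lay closer together. For these genes and for the kinase complex the highest isotonic cell lay above the highest AAS cell.

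Of the Atg1 complex, 4 of 6 genes were higher in AAS cells before scaling, where 43.2% of all genes were. ATG17 was the one of these that fell below 2-fold under both scalings. ATG1 (YGL180W; chromosome VII, 160065 to 162758, plus strand), the kinase that starts autophagosome formation, had a lowest, median and highest level of 0, 149 and 619 CPM in AAS cells and of 0, 6.38 and 206.7 CPM in isotonic cells. Its mean was 176 ± 169 CPM (SD, 18 cells) against 23.5 ± 51.1 CPM (SD, 16 cells), a log2 fold change of 2.85. The AAS cell was the higher one in 83.3% of the pairs of an AAS and an isotonic cell, but the groups overlapped, with 5 AAS cells above every isotonic cell. Its partner ATG13 (YPR185W), the subunit through which TORC1 acts, had a log2 fold change of 2.00, ATG29 (YPL166W) one of 1.51 and ATG17 (YLR423C), the scaffold of starvation-induced autophagy, one of 1.21. ATG29 overlaps SET6 on the other strand, and since the strand of the libraries is not given its reads cannot be told from those of SET6. ATG31 (YDR022C), the third scaffold subunit, stayed under 2-fold. ATG11 (YPR049C), the scaffold of selective autophagy, stood apart: it ran from 0 over a median of 83.6 to 364 CPM in AAS cells and from 0 over 26.5 to 1106 CPM in isotonic cells, and its mean was lower in AAS cells (120 ± 113 against 154 ± 289 CPM, log2 fold change -0.36) while its median was higher. Without the highest cell of each group it was at 0.22.

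The lipid kinase VPS34 (YLR240W) had a log2 fold change of 1.90 and ATG14 (YBR128C), which directs the kinase to the site of autophagosome formation, one of 1.60. In the 5 AAS cells with X in their name VPS34 was at -0.18. VPS30 (YPL120W), the yeast relative of Beclin 1, had equal means, 74.7 ± 65.1 CPM against 74.9 ± 170 CPM. It was nevertheless read in 17 of 18 AAS and 9 of 16 isotonic cells, with medians of 68.1 and 0.132 CPM, so the isotonic mean rested on a few cells of up to 520 CPM.

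Membrane supply held both the highest and the lowest fold change of the set. ATG9 (YDL149W; chromosome IV, 184925 to 187918, plus strand), the membrane protein whose vesicles seed the autophagosome, had a lowest, median and highest level of 0, 209.3 and 624 CPM in AAS cells and of 0, 0.519 and 105 CPM in isotonic cells. The means were 214.3 ± 171 and 12.1 ± 27.1 CPM, the log2 fold change was 4.04, and 13 of 18 AAS cells lay above all isotonic cells. ATG18 (YFR021W), which binds phosphatidylinositol 3-phosphate and works with the lipid transfer protein Atg2, reached a median of 66.4 CPM (0 to 383) against 1.24 CPM (0 to 60.3), with means of 103.9 ± 117 and 10.0 ± 17.7 CPM and a log2 fold change of 3.25. The AAS cell was the higher one in 88.2% of pairs for ATG9 and in 82.3% for ATG18.

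ATG41 (YPL250C; chromosome XVI, 74309 to 74719, minus strand), an Atg9 partner needed for full autophagy, was read in all 18 AAS cells. It ran from 30.1 over a median of 332 to 539 CPM there and from 0 over 36.3 to 256 CPM in isotonic cells, with means of 299 ± 162 and 50.1 ± 68.9 CPM and a log2 fold change of 2.56. As many as 12 AAS cells lay above every isotonic cell. ATG21 (YPL100W) had a log2 fold change of 2.12 and ATG2 (YNL242W) one of 1.45, though ATG2 was at -0.97 in the 5 AAS cells with X in their name.

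The proteins that bring Atg9 to its site did not follow. ATG27 (YJL178C) was the only gene of the set at least 2-fold lower in AAS cells: its lowest, median and highest levels were 0, 18.7 and 144 CPM against 0, 52.0 and 523.7 CPM, its means 41.5 ± 48.0 and 101 ± 138 CPM and its log2 fold change -1.26. On summed reads it was at -0.68, under 2-fold. The groups overlapped widely, and the AAS cell was the higher one in 39.1% of pairs. ATG23 (YLR431C) stayed under 2-fold, at 0, 74.8 and 176 CPM against 0, 0.206 and 343 CPM (means 73.3 ± 50.5 and 52.0 ± 93.3 CPM, log2 fold change 0.49).

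All 7 conjugation genes past the filter were at least 2-fold higher before scaling, where 43.2% of all genes were. Of these, ATG5 fell below 2-fold under both scalings. ATG8 (YBL078C; chromosome II, 80378 to 80731, minus strand), the ubiquitin-like protein that is coupled to phosphatidylethanolamine on the growing membrane, was read in all 18 AAS cells and in 9 of 16 isotonic cells. Its lowest, median and highest levels were 32.7, 114 and 228 CPM in AAS cells and 0, 2.15 and 94.7 CPM in isotonic cells. The means were 118 ± 56.3 and 12.975 ± 24.2 CPM and the log2 fold change was 3.10; the AAS cell was the higher one in 97.2% of pairs, the largest share among the 36 genes. ATG7 (YHR171W), the E1-like enzyme for both Atg8 and Atg12, had a median of 196 CPM (0 to 751) against 0 CPM (0 to 113), with means of 228 ± 179 and 20.2 ± 37.6 CPM and a log2 fold change of 3.43. The E2-like enzyme for Atg8, ATG3 (YNR007C), had a log2 fold change of 2.74, and the Atg8 protease ATG4 (YNL223W) one of 1.61. On the Atg12 side, ATG12 (YBR217W), ATG5 (YPL149W) and ATG16 (YMR159C), which together help lipidate Atg8, had log2 fold changes of 2.13, 1.94 and 1.66.

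The sorting nexins ATG20 (YDL113C) and SNX4 (YJL036W), which work together in selective autophagy and endosomal recycling, had log2 fold changes of 2.93 and 2.46. SNX4 was found in all 18 AAS cells, from 35.5 to 363 CPM. ATG20 ran from 0 CPM in AAS cell D97X to 607 CPM in D19.

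Among the receptors 6 of 7 were higher before scaling, where 43.2% of all genes were. Of these, ATG19, ATG32 and ATG40 fell below 2-fold under both scalings. ATG36 (YJL185C), the receptor for peroxisomes, ran from 1.34 over a median of 49.1 to 214.1 CPM in AAS cells and from 0 over 0.0301 to 53.6 CPM in isotonic cells, with means of 61.8 ± 53.3 and 5.38 ± 13.6 CPM and a log2 fold change of 3.30. The nuclear and perinuclear ER receptor ATG39 (YLR312C) had a log2 fold change of 1.98, the mitophagy protein ATG33 (YLR356W) one of 1.96, the receptor of aminopeptidase 1, ATG19 (YOL082W), one of 1.87, the mitophagy receptor ATG32 (YIL146C) one of 1.33 and the ER receptor ATG40 (YOR152C) one of 1.09. In the 5 AAS cells with X in their name ATG19 was at -0.32. ATG34 (YOL083W), the receptor that carries alpha-mannosidase in starved cells, was the exception, at 0, 57.5 and 240 CPM against 0, 3.06 and 298 CPM (means 67.7 ± 72.6 and 71.8 ± 108 CPM, log2 fold change -0.08, and 0.19 on summed reads). Its median was higher in AAS cells and its mean was not.

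At the vacuole all 3 genes were higher before scaling, where 43.2% of all genes were. Of these, ATG22 and ATG42 fell below 2-fold under both scalings. ATG15 (YCR068W; chromosome III, 237214 to 238776, plus strand), the lipase that opens autophagic bodies, had a lowest, median and highest level of 0, 95.2 and 247 CPM in AAS cells and of 0, 0 and 37.7 CPM in isotonic cells, where 6 of 16 cells held a read. Its means were 101 ± 75.3 and 6.16 ± 13.1 CPM, its log2 fold change was 3.84, and 13 AAS cells lay above all isotonic cells. ATG42 (YBR139W; chromosome II, 515664 to 517190, plus strand), a vacuolar carboxypeptidase, was high in both groups, at 0, 450 and 752 CPM against 0, 128 and 785 CPM, with means of 412 ± 177 and 183 ± 210 CPM and a log2 fold change of 1.17. No AAS cell exceeded the highest isotonic cell. ATG22 (YCL038C), which exports amino acids from the vacuole, had a log2 fold change of 1.51.

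**Figure D3:**
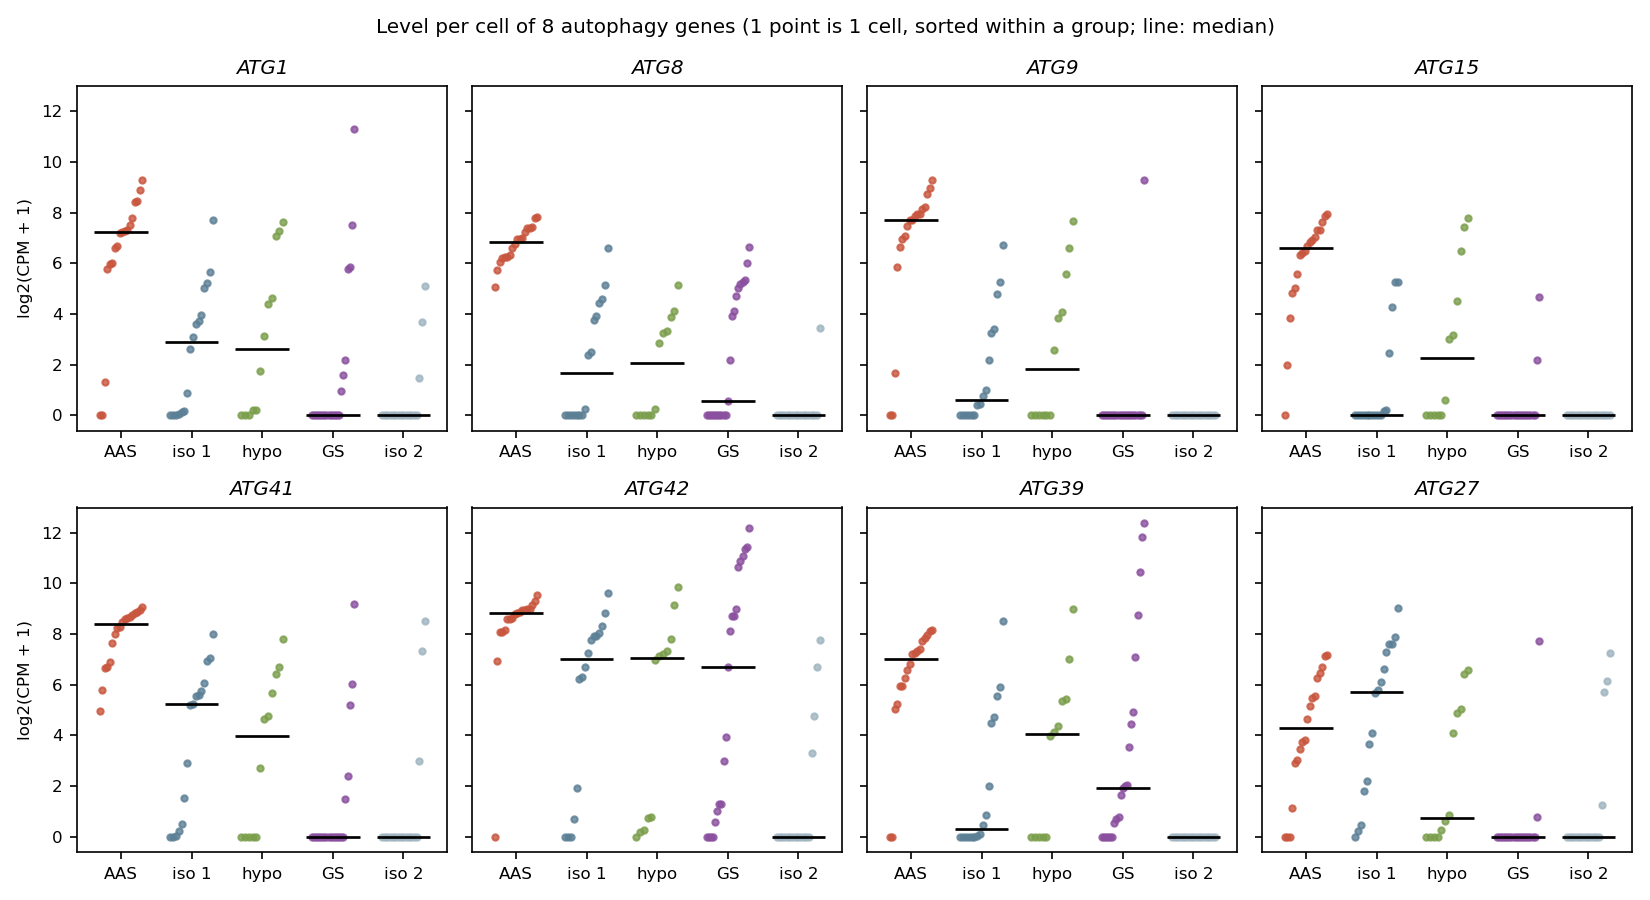
Level per cell, as log2(CPM + 1), of 8 autophagy genes in the kept cells of AAS, isotonic batch 1 (iso 1), hypotonic (hypo), GS and isotonic batch 2 (iso 2); 1 point is 1 cell, sorted within a group, and the black line is the median of the group. ATG8 and ATG41 have no AAS cell at 0, ATG39 has no batch 2 isotonic cell above 0, and ATG27 has a higher median in isotonic than in AAS cells.

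Levels were also compared between genes, per kb of coding length. In AAS cells the order began with ATG41 (728 CPM per kb), ATG8 (335), ATG42 (270), ATG33 (213.1), ATG20 (178) and SNX4 (157). In isotonic cells of batch 1 it began with ATG27 (123 CPM per kb), ATG41 (122) and ATG42 (120), followed at a distance by ATG34 (57.9), and the SDs over cells were larger than the gaps between the first 3. ATG8 stood at 36.7 CPM per kb there.

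The split of the isotonic cells by the first letter of their name, which the labels do not explain, moved the size of the AAS difference. Taking only the 9 isotonic cells named A, 24 genes were higher and the median log2 fold change was 1.26. There 44.5% of all genes were higher, with a median of 0.80. Taking only the 7 named E or G, 29 were higher and the median was 3.32. In that split 54.0% of all genes were higher, with a median of 1.25, so part of the move was shared by all genes. ATG8 stood at 2.73 and 3.77 in these splits, and ATG9 at 3.33 and 6.53.

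A list of 27 other genes that act with the set (kinase partners, cargo, tethers, the fusion machinery and regulators) gave 18 at least 2-fold higher and 0 lower in AAS cells, with a median log2 fold change of 1.68, where 43.2% of all genes were higher and 13.8% lower with a median of 0.74. With TMM 13 of the 27 were higher and 5 lower, where 27.9% and 25.7% of all genes were, a count added after seeing the data. Of 10 regulators 8 were higher, and 7 higher and 2 lower with TMM. TOR1, the kinase of TORC1, stood at 173 ± 143 against 20.97 ± 27.3 CPM (log2 fold change 2.99), and RIM15, a kinase of the response to nutrient loss, at 48.1 ± 81.4 against 3.75 ± 11.1 CPM (3.37). The repressor genes RPD3 and RPH1 had log2 fold changes of 2.74 and 2.72, and the GATA factor genes GLN3 and GAT1 2.50 and 2.00. GCN4, whose product is controlled mostly by translation, was read in all 18 AAS and all 16 isotonic cells, at 349 ± 175 and 459 ± 482 CPM (-0.39), and UME6 was at 0.57. APE1, the gene of aminopeptidase 1, was at 760 ± 647 against 237 ± 266 CPM (1.68), and MON1, which with CCZ1 prepares the vacuole for fusion, had the largest difference of the list (4.04).

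Without sorbitol the same genes moved in both directions. These cells were compared with the same 16 isotonic cells, so the 2 comparisons share their controls. Every hypotonic cell has X in its name, and of the isotonic cells only E10X and E11X do. What the X stands for is not given, so treatment and this mark change nearly together here, and its part was not tested. Again 35 genes passed the filter; 11 were at least 2-fold higher and 10 lower, where 21.2% of 5600 genes were higher and 30.1% lower, and the median log2 fold change was 0.05 against -0.26 for all genes. Of the 36 genes 8 were read in a larger share of hypotonic than of isotonic cells and 27 in a smaller one, where 24.7% of all gene entries were in a larger share. After thinning to 100000 reads 17 were in a larger and 15 in a smaller share, with 42.3% of all gene entries in a larger share.

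Several of the hypotonic differences rested on 1 cell. ATG4 had the highest log2 fold change (4.34), but its median was 14.3 CPM and its highest cell, F22X, had 8924 CPM; its mean was 804 ± 2561 CPM (SD, 12 cells) against 38.8 ± 84.8 CPM in isotonic cells, where the median was 0.407 and the highest cell 298 CPM. Cell F22X held reads of 6 of the 36 genes and a summed level of 10425 CPM, and cell F24X held reads of 5 and 10.9 CPM in all. Without both, ATG4 was at 0.87, and 13 genes were higher and 8 lower, where 19.9% and 28.1% of all genes were. The other 10 hypotonic cells lay within the isotonic range of summed levels.

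ATG15 was high in both comparisons: it ran from 0 over a median of 3.74 to 218.5 CPM in hypotonic cells (mean 42.7 ± 75.6 CPM, log2 fold change 2.61), and 3 of 12 cells lay above all isotonic cells. ATG3 ran from 0 over 12.2 to 287 CPM in hypotonic cells and from 0 over 0.345 to 70.7 CPM in isotonic cells (37.9 ± 80.4 against 9.43 ± 18.5 CPM, 1.90). ATG14 ran from 0 over 0 to 445 CPM against 0 over 0.0428 to 153 CPM (40.5 ± 128 against 10.6 ± 37.98 CPM, 1.84), and 91.7% of its summed CPM came from 1 cell. ATG31 ran from 0 over 3.37 to 329 CPM against 0 over 0.117 to 127 CPM (40.8 ± 94.2 against 13.1 ± 32.0 CPM, 1.56). For the last 3 only 1 hypotonic cell lay above the highest isotonic cell.

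ATG11 had the lowest log2 fold change (-4.02), with 8.54 ± 17.04 CPM and a highest hypotonic cell of 50.9 CPM. ATG12 followed with -2.75; it ran from 0 over 0 to 1.74 CPM in hypotonic cells and from 0 over 0.0151 to 119 CPM in isotonic cells (0.340 ± 0.666 against 8.04 ± 29.6 CPM), and without the highest cell of each group it was at -0.44. ATG27 was lower here as well, at 0, 0.680 and 94.5 CPM (21.5 ± 34.1 CPM, -2.17), and the hypotonic cell was the higher one in 26.04% of pairs. ATG2 stood at 0, 0.168 and 27.97 CPM against 0, 0.661 and 242 CPM (5.18 ± 8.39 against 25.7 ± 59.9 CPM, -2.11) and VPS34 at 0, 0 and 33.7 CPM against 0, 0.00906 and 146 CPM (6.81 ± 11.5 against 31.6 ± 57.1 CPM, -2.06). These last 2 turned direction when only the 7 isotonic cells named E or G were taken, to 2.14 and 2.97.

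Past 2-fold were also ATG18 (1.49), ATG32 (1.24), ATG20 (1.14), ATG17 (1.09) and SNX4 (1.04) on the higher side, and ATG36 (-2.06), ATG23 (-1.99), ATG13 (-1.30), ATG19 (-1.10) and ATG5 (-1.06) on the lower. Both sorting nexins were thus higher, 1 vacuolar gene was higher and none lower, and each of the other 5 roles held genes past 2-fold on both sides.

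The genes high in AAS cells were not alike in hypotonic cells. ATG8 ran from 0 over 3.23 to 33.9 CPM (7.32 ± 10.2 CPM, log2 fold change -0.75), ATG41 from 0 over 14.9 to 220.9 CPM (42.8 ± 66.2 CPM, -0.22, and 0.31 on summed reads) and ATG42 from 0 over 133 to 913 CPM (190 ± 279 CPM, 0.06). ATG1 was under 2-fold, from 0 over 5.08 to 198 CPM (44.9 ± 72.2 CPM, 0.91), and ATG9 just over it, from 0 over 2.51 to 202 CPM (31.6 ± 60.8 CPM, 1.32). In all 5 the hypotonic and isotonic cells overlapped over most of their range. Of the 27 acting partners 7 were higher and 4 lower, beside 21.2% and 30.1% of all genes.

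**Figure D4:**
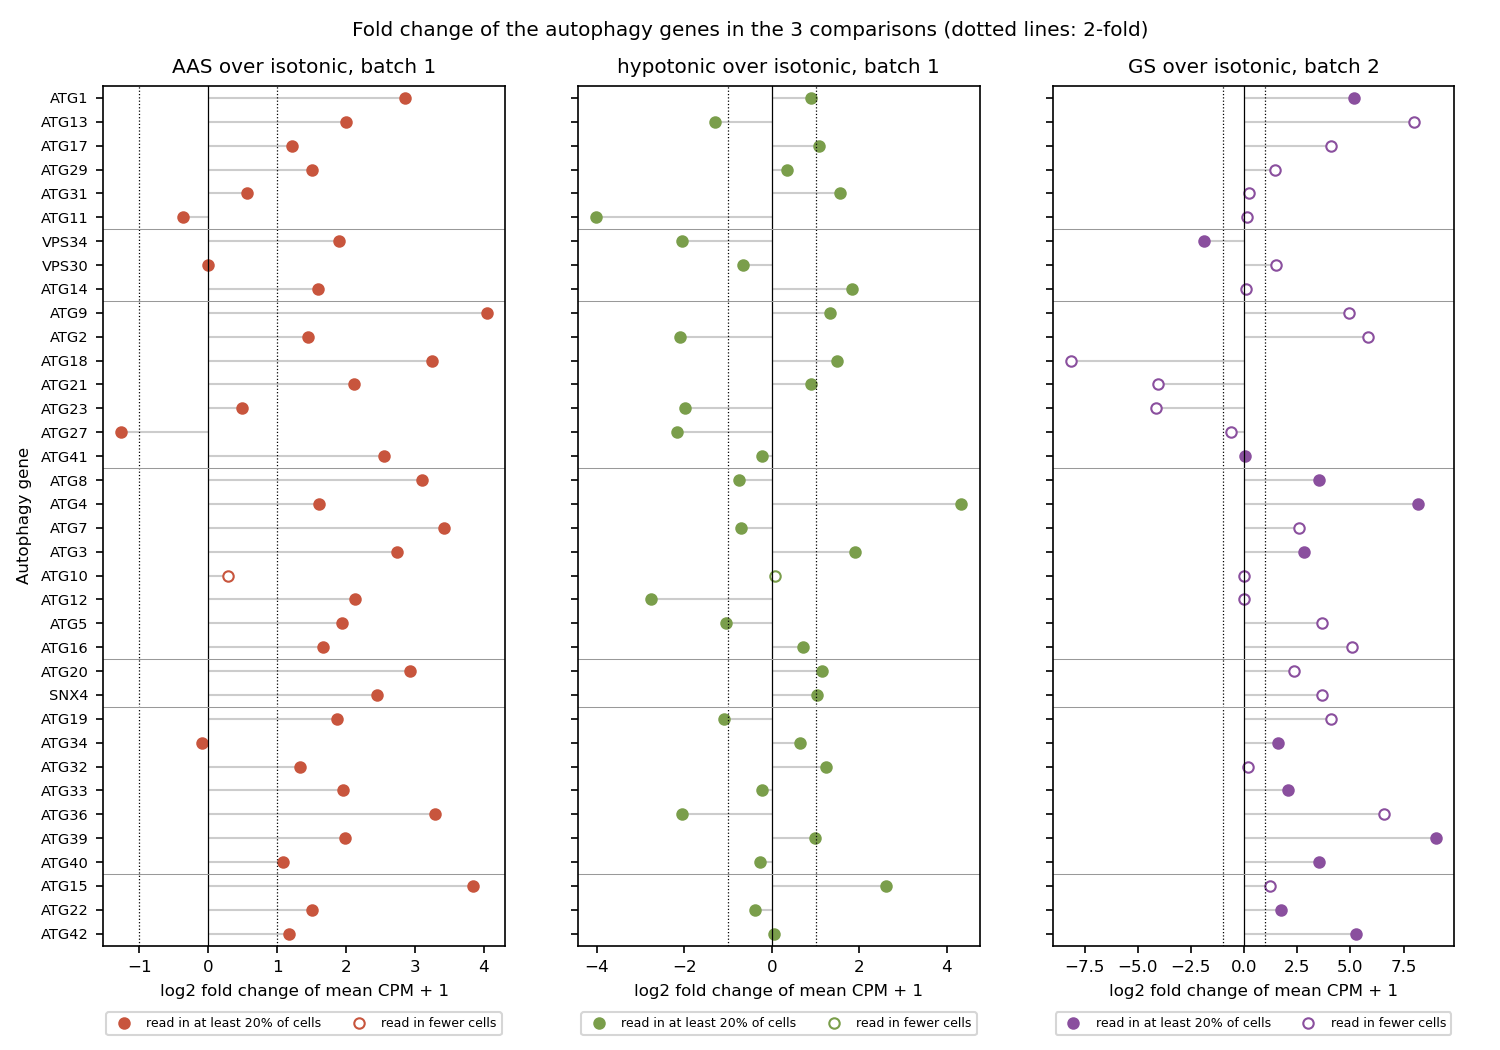
Log2 fold change of mean CPM plus 1 CPM for each autophagy gene (rows, by role) in the AAS, hypotonic and GS comparisons; filled points passed the 20% detection filter and open points did not, dotted lines mark 2-fold, and the 3 horizontal scales differ. Only ATG27 lies past 2-fold on the lower side in the AAS panel, points fall on both sides in the hypotonic panel, and most GS points are open.

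Glucose starvation was compared in the shallow batch 2, where detection set what could be seen. Only 12 of the 36 genes passed the filter, and 4 did so in isotonic cells alone, so most entered through the GS cells and a count among them supports nothing; 10 were at least 2-fold higher and 1 lower, where 44.1% of 2106 genes were higher and 26.2% lower. Of all 36 genes, 29 were read in a larger share of GS than of isotonic cells and 5 in a smaller one, where 48.8% of all gene entries were in a larger share. The GS cells were the deeper ones, with a median of 1607922 against 433165 reads. After thinning to 100000 reads, which left out 6 isotonic cells, 20 were in a larger share and 10 in a smaller one, where 38.7% of all entries were in a larger share. Reads of a median of 5 genes (1 to 12) were then found per GS cell and of 3 (1 to 6) per isotonic cell.

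The levels in batch 2 were carried by single cells. For the 33 genes with a read in GS cells, the highest cell held a median of 90.2% of the summed CPM of the gene, against 17.6% in AAS cells and 44.2% in isotonic cells of batch 1. The summed level of the 36 genes ran from 33.6 over a median of 2797 to 11757 CPM in GS cells and from 0 over 537 to 16330 CPM in isotonic cells. The highest isotonic cell was Y702, with 22290 reads on 191 genes and ATG18 as its only gene of the set; without it the highest stood at 3071 CPM, and 10 of 21 GS cells lay above that.

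ATG39 (chromosome XII, 757637 to 758833, minus strand), the receptor for the nuclear envelope, was read in 15 of 21 GS cells (71.4%, interval 47.8% to 88.7%) and in 0 of 17 isotonic cells (upper bound 19.5%). It ran from 0 over a median of 2.83 to 5309 CPM in GS cells, with a mean of 524.4 ± 1377 CPM (SD, 21 cells). With 22753 summed reads against 0 the ratio per read on genes was 1625, when 3 summed reads were set for the isotonic group. This ratio is not a lower bound, since reads that are PCR copies are not independent. Cell Y514 alone held 48.2% of the summed CPM. After thinning it was read in 9 of 21 GS and 0 of 11 isotonic cells.

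ATG42 was the gene of the set read in most GS cells: 17 of 21 (80.95%, interval 58.1% to 94.6%) against 4 of 17 isotonic cells (23.5%, interval 6.81% to 49.9%). It ran from 0 over a median of 103 to 4686 CPM in GS cells and from 0 over 0 to 213.8 CPM in isotonic cells, with means of 834 ± 1295 and 20.6 ± 55.7 CPM (log2 fold change 5.27). As many as 10 GS cells lay above every isotonic cell, and after thinning it was read in 14 of 21 and 2 of 11 cells. Before thinning, every one of the 21 GS cells held reads of ATG39 or ATG42, and 11 held both. Of the isotonic cells 4 of 17 did, all through ATG42. Some GS cells lay near the floor: Y530 entered only through ATG42, at 0.482 CPM, and Y512 only through ATG39, at 2.95 CPM.

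ATG8 was read in 11 of 21 GS cells (52.4%, interval 29.8% to 74.3%) and 1 of 17 isotonic cells (5.88%, interval 0.149% to 28.7%). Its levels stayed modest, from 0 over 0.485 to 97.8 CPM in GS cells (17.3 ± 26.1 CPM) and up to 10.0 CPM in the 1 isotonic cell (0.589 ± 2.43 CPM; log2 fold change 3.53). Unlike most of the set, its GS level was spread over several cells, 9 of which lay above the isotonic cell. After thinning it was read in 9 of 21 and 1 of 11 cells.

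The remaining GS values depended on few cells. ATG4 was read in 8 of 21 GS and 0 of 17 isotonic cells, from 0 over 0 to 6127 CPM (292 ± 1337 CPM). The highest cell held 99.9% of its summed CPM. With 6549 reads against 0 the ratio per read on genes was 468 by the same 3 summed reads, again not a lower bound. ATG1 was read in 7 of 21 and 3 of 17 cells, from 0 over 0 to 2527 CPM against 0 over 0 to 33.1 CPM (135 ± 550 against 2.76 ± 8.35 CPM, log2 fold change 5.17), and 89.4% of its GS level came from 1 cell. ATG40 was read in 7 of 21 and 2 of 17 cells (134 ± 441 against 10.6 ± 42.9 CPM, 3.54), with a highest cell of 1887 against 177 CPM. For ATG4 the log2 fold change was 8.20 with all cells and 0.45 without the highest cell of each group, so 1 cell set its size.

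ATG33, ATG22 and ATG34 came next. ATG33 was read in 10 of 21 GS and 4 of 17 isotonic cells, with highest cells of 1558 and 241 CPM and means of 82.7 ± 339 and 18.8 ± 58.5 CPM (2.08), but on summed reads it was at -0.20. ATG22 was read in 8 of 21 and 3 of 17 cells, with highest cells of 2739 and 772 CPM and means of 250 ± 730 and 73.4 ± 208.3 CPM (1.75). ATG34 was read in 3 of 21 and 5 of 17 cells, with highest cells of 2139 and 388 CPM and means of 130 ± 478 and 42.8 ± 103.7 CPM (1.58), a higher mean in a smaller share of cells.

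ATG41 and VPS34 did not follow. ATG41 was read in 5 of 21 GS and 3 of 17 isotonic cells, with highest cells of 578 and 366 CPM and means of 32.6 ± 126 and 31.3 ± 94.5 CPM (log2 fold change 0.05, and -0.27 on summed reads). VPS34 was read in 4 cells of each group, with highest cells of 1206 and 3067 CPM and means of 58.1 ± 263 and 218.8 ± 746 CPM (-1.90). ATG3 was read in 7 of 21 GS cells, at up to 828 CPM, and in 1 isotonic cell (2.83). ATG36, below the filter, was read in 7 GS cells and in 0 isotonic cells. Its ratio per read on genes was 192 with 3 summed reads set for the isotonic group, which is not a lower bound.

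Of the genes that led the AAS comparison, ATG9 was read in 1 GS cell, at 623 CPM, and ATG15 in 2, at up to 24.3 CPM, and neither in an isotonic cell of batch 2. ATG10 and ATG12 were not read in any cell of batch 2, so a difference was not detectable at this depth. ATG23 was read in 3 of 17 isotonic and 0 of 21 GS cells, and in 3 of 11 and 0 of 21 after thinning. With 139 reads against 0, its isotonic to GS ratio per read on genes was 216.3, with 3 summed reads set for the GS group. That ratio is not a lower bound either, and the highest isotonic cell, at 240 CPM, held 85.65% of the summed CPM.

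**Figure D5:**
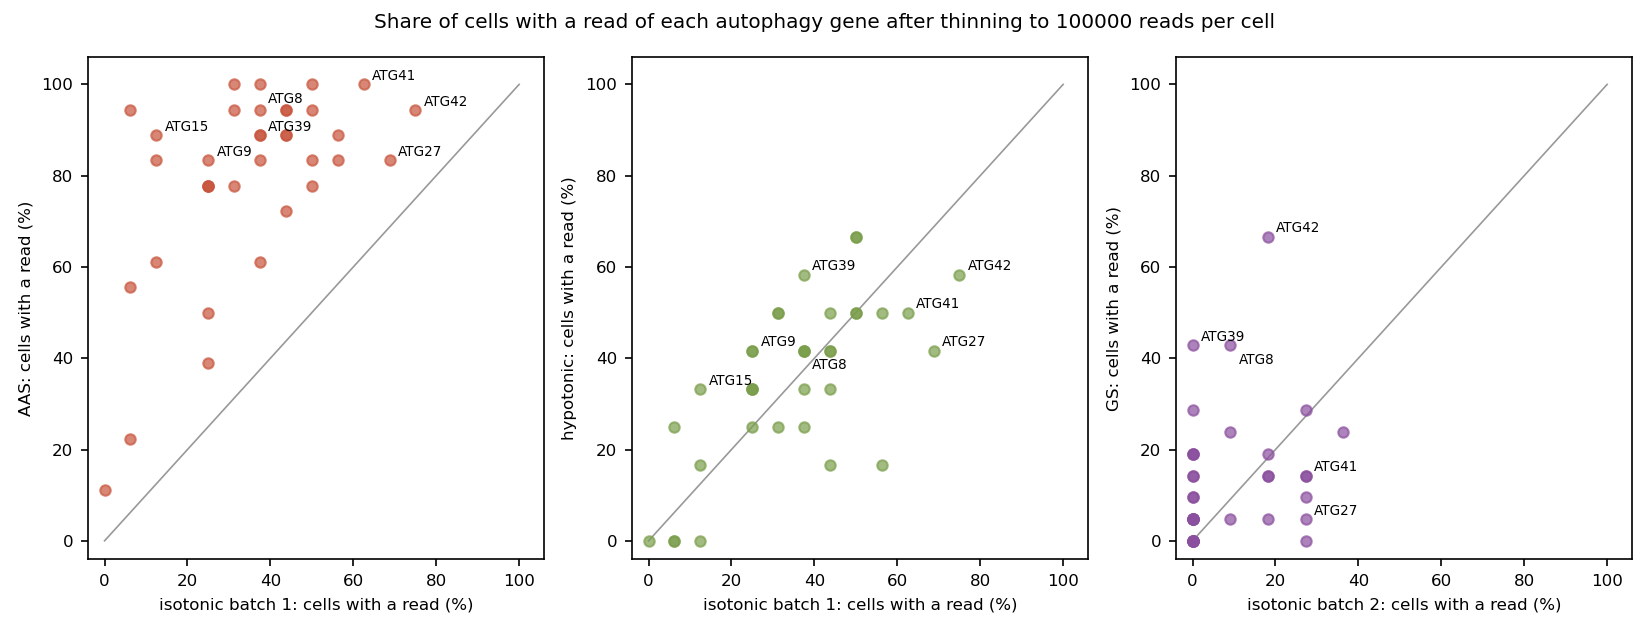
Percent of cells with a read of each autophagy gene after every cell was thinned to 100000 reads, in the treated group (vertical) against its isotonic group (horizontal); 1 point is 1 gene and the line marks equal shares. All 36 genes lie above the line for AAS (18 against 16 cells); for hypotonic 17 lie above and 15 below, and for GS (21 against 11 cells) 20 above and 10 below, with ATG42, ATG39 and ATG8 highest.

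The starved groups can be set side by side only as separate comparisons, since batch, depth and treatment change together. Their values stand gene by gene above, and the difference between the starvations was not tested. Of the 27 acting partners 12 passed the filter in batch 2, with 6 higher and 3 lower, which is near the 44.1% and 26.2% of all genes.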

How the data were processed

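The authors lysed and amplified single cells, added ERCC spike-in RNA to most samples, aligned reads to yeast genome R64 (STAR 2.5.2, with RSEM 1.2.31 and HTSeq, per the submitters' processing notes) and deposited whole-number read counts per gene for each cell, with 92 spike-in rows and HTSeq summary rows; the sources used here give no strand setting. The summary rows were left out of all totals: reads outside any feature were a median of 2.03% and ambiguous reads 1.17% per cell. No 2 libraries were identical.

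From the deposited counts CPM over 6420 gene rows was computed in each cell, the 84 cells the study kept were used, groups were averaged with equal weight per cell, and fold changes were formed with a pseudocount of 1 CPM (Python 3.11.15, pandas 2.3.3). The design has no test, because cells of 1 group are 1 sample. Alternatives were other pseudocounts (0.1 and 10), reads summed over each group without scaling or scaled with edgeR 4.0.16 (TMM) or DESeq2 1.42.0 (size factors), all mapped cells, the highest cell of each group left out, no detection filter, thinning to 100000 reads and splits by cell name or depth. The fold change measure was tested on simulated data. Changes were planted there only in genes well read in isotonic cells, so the genes of this set that were low in isotonic cells are not covered. Intervals are exact Clopper-Pearson intervals.

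The 36 members and the 27 partner genes were chosen with earlier results of these data known. Full values are given for ATG1, ATG8, ATG9, ATG15, ATG41 and ATG42 in every comparison and for the 5 highest and 5 lowest members past the filter in each; other members by counts, ranges or fold change. Partner genes past 2-fold in AAS cells could be named; GCN4 and UME6 were added after their values were seen. Promoters came from the RefSeq genome of the same build.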

Additional observations from a re-analysis of the deposited data

How the results depend on the processing

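Under the alternatives a gene called past 2-fold changed sign in 3 of 540 values for the 36 genes in the AAS comparison. It did so in 2 of 195 for 15 genes in the hypotonic and in 5 of 156 for 13 genes in the GS comparison. These totals also hold genes under 2-fold, whose sign changes were not counted, so the share among called genes was larger. Such genes were ATG10, ATG11, ATG23, ATG31, ATG34 and VPS30 for AAS, ATG1, ATG8, ATG41 and ATG42 for hypotonic and ATG41 for GS cells. Sizes moved more widely, for ATG9 in AAS cells from 2.43 to 6.53. For AAS against isotonic cells, the count of genes at least 2-fold higher ran from 19 to 31 and was 19 with DESeq2 size factors. The count lower was 0 on summed reads, 2 with TMM, 2 against isotonic cells named E or G, 2 for AAS cells with X in their name and 3 with DESeq2 size factors. The median log2 fold change ran from 1.03 to 3.32, the latter against isotonic cells named E or G, where that of all genes was 1.25. In AAS cells with X in their name VPS34 (-0.18), ATG2 (-0.97) and ATG19 (-0.32) reversed. For hypotonic cells a pseudocount of 10 CPM gave 7 higher and 6 lower, where 16.2% and 22.1% of all genes were. Isotonic cells named E or G gave 19 higher and 6 lower, where 38.9% and 24.9% of all genes were, and reversed VPS34 (2.97) and ATG2 (2.14). For GS cells 4 were higher and 0 lower with all mapped cells, 24 and 4 without a detection filter, 5 and 0 after thinning, and 4 higher in the GS cells that the study left out (those of 10000 reads or more), where ATG34 (-0.71) and ATG22 (-4.40) reversed. ATG33 reversed on summed reads (-0.20), with TMM (-0.26) and with DESeq2 size factors (-0.48). Leaving out AAS cells D97X and D94X, hypotonic cells F22X and F24X or isotonic cell Y702 was chosen after seeing the data and moved no count of genes by over 1.5 times. Why values moved was not tested. No paired analysis was possible because the cells carry no shared replicate numbers and no test was made.

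The depth of batch 2 limits what can be seen: 18 of the 36 genes had no read in its 17 isotonic cells.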
